A study of Mus musculus with 12 samples.

Results

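The comparison set luminal mammary cells of mice at day 2 of lactation against luminal cells of mice at day 18.5 of pregnancy. Its members were 4 of the 12 RNA-seq libraries of the series, 2 per stage, chosen by their stage and cell type labels alone. Luminal cells of virgin mice and basal cells of all stages made up the other 8 libraries, which entered the same fit. All mice were wild-type FVB/N females that received no treatment, and no group carried a transgene or a deletion by its labels. The cells were sorted by flow cytometry directly from the gland, and neither the age of the mice nor the surface markers of the sort is stated in the labels. The design text states 2 mice per stage but not that each library is a single mouse. The p-values therefore measure the spread between libraries of a group, estimated over all 12 libraries of the fit, and that spread may be technical. The question, from the series title, was which transcripts differ between the lactating and the pregnant gland.

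Luminal cells form the inner layer of the mammary epithelium. Late in pregnancy the alveolar luminal cells are already differentiated for milk, but high progesterone holds back full secretion. After birth progesterone falls while prolactin stays high, the tight junctions between alveolar cells close, and the cells begin to secrete caseins, whey proteins, lactose, fat globules, calcium and zinc in quantity. The transcripts described here are grouped by these tasks, from milk components to the machinery that makes them and the signals that surround it.

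The pregnant libraries held 22241607 and 21988240 counts and the lactating ones 24723827 and 24657293, and all 4 shared a sequencing lane by their run names. Levels are CPM, counts relative to the library's total, scaled by TMM, which corrects for how much of a library its most abundant transcripts take. The TMM factors were 1.004 and 0.9226 in pregnancy and 0.5293 and 0.5354 in lactation. Replicate libraries had a Pearson correlation of log2(CPM + 1), taken over genes and so not over independent values, of 0.9936 in pregnancy and 0.9955 in lactation.

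The luminal label held in all 4 libraries, though luminal markers were lower in lactation. The 8 luminal markers summed to 8965 and 10456 CPM in pregnancy and 4936 and 4331 CPM in lactation, and 7 of them fell. Krt8, a keratin of simple epithelia, stood at 2650 and 3163 CPM in pregnancy and 1026 and 702 CPM in lactation, and Elf5, the alveolar transcription factor, at 707 and 758 CPM in pregnancy and 1079 and 1255 CPM in lactation. The summed level of 10 basal markers was 365.2 and 443.8 CPM in pregnancy and 125.8 and 139.3 CPM in lactation, and most of the pregnant sum was Krt14 (216 and 271 CPM). The 10 fibroblast markers summed to 76.64 and 54.73 CPM in pregnancy and 121.7 and 132.6 CPM in lactation, and 5 of them rose, among them Col3a1 (32.4 and 22 to 53.2 and 57.8 CPM). By library size alone 0 of the fibroblast markers were higher in lactation and 1 was lower (median log2 change 0.06). The 10 endothelial markers summed to 40.4 and 31.01, then 65.96 and 65.38 CPM, the 6 pericyte markers to 78.61 and 75.14, then 100 and 111.2 CPM, and the 7 adipocyte markers to 16.08 and 21.3, then 19.11 and 20.76 CPM. The leukocyte sum went from 15.41 and 17.31 to 8.56 and 8.107 CPM over 10 markers and the erythroid sum from 7.033 and 4.29 to 1.529 and 1.818 CPM over 6. Cd79a, a defining B-cell gene, lay at or below 0.789 CPM in each library, and Adipoq and Lep, defining adipocyte genes, at or below 0.0493 CPM. The part of these cells in the results was not tested.

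Of 15969 genes tested, 7716 (48.3%) passed an adjusted p of 0.05 in edgeR's quasi-likelihood test, and "rose" and "fell" below refer to these calls. In lactation 3781 (23.7%) were higher and 3935 (24.6%) were lower. The counts of list members that rose or fell below are to be read beside these shares. A list near them in both directions does not differ from genes at large. A log2 change is printed ± its standard error. At least a 2-fold difference was found for 1806 of the higher and 1581 of the lower genes, and at least an 8-fold difference for 245 and 231. The libraries of the 2 stages did not overlap in 11794 genes (73.9%), so a lack of overlap in a gene named below is the usual case. Scaling by library size alone set the median change over all genes to -0.851 (log2) and turned the split of calls into 1013 higher and 9584 lower. All changes below are therefore relative to the typical gene of these libraries: CPM values cannot tell whether a cell held more or less RNA in all. In these sorted bulk samples, too, fewer cells of a kind and less RNA per cell cannot be told apart. Of the 265 genes named here 15 share over 20% of their exon length with another gene (GENCODE), so that reads of either cannot be told apart where the count did not use strand, which the sources used here do not give. These are Atp5o, Bad, Bak1, C1qtnf1, Ccn2, Ccnd1, Ctsd, Fdps, Fen1, Irs1, Mpc1, Pcp4, Phlda1, Slc1a1 and Trf. The median log2 change of all tested genes was 0.00, and 80% of them lay between -1.32 and 1.31.

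**Figure D1:**
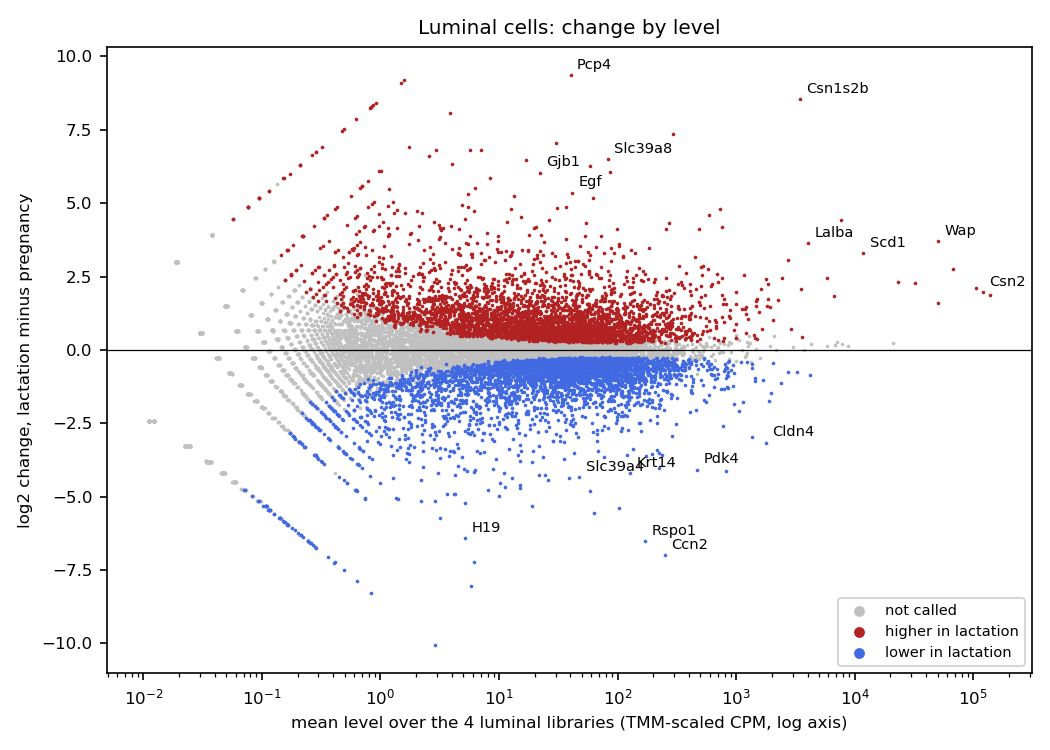
Log2 change from pregnancy to lactation (vertical) against the mean level over the 4 libraries (horizontal, TMM-scaled CPM, log axis) for the genes tested. Called genes are coloured by direction, and the labelled genes are described in the text. Of the labelled genes, those of milk proteins lie to the right above 0 and Ccn2 and Rspo1 are the lowest.

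Milk protein transcripts made up most of the lactating libraries. The 14 casein and whey genes held 19.98% and 23.03% of all counts in the pregnant libraries and 53.46% and 52.41% in the lactating ones, with exact binomial 95% intervals from 19.96 to 19.99%, 23.02 to 23.05%, 53.44 to 53.48% and 52.39 to 52.43%, which cover counting error only. The 10 most abundant genes held 22.2% and 24.8% of counts in pregnancy and 54.1% and 53.1% in lactation. All 5 caseins rose, with a median log2 change of 2.12, and 8 of 9 whey and other milk proteins did so, with a median of 2.40.

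**Figure D2:**
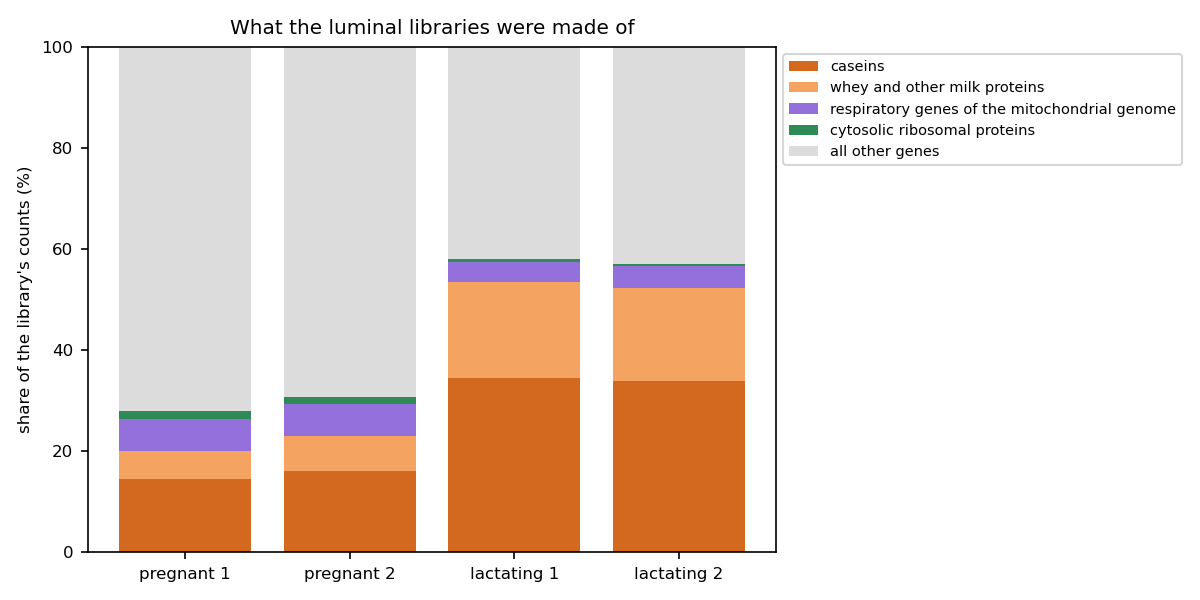
Share of each library's raw counts (percent, stacked bars from 0 to 100) held by caseins, whey and other milk proteins, respiratory genes of the mitochondrial genome, cytosolic ribosomal proteins and all other genes. The casein share went from 14.46% and 16.07% in pregnancy to 34.48% and 33.91% in lactation.

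The caseins, which carry calcium phosphate and most of the protein of mouse milk, lie in 1 cluster on chromosome 5 of GRCm38. From low to high coordinate the RefSeq spans are Csn1s1 (chromosome 5, 87666208 to 87682578), Csn2 (chromosome 5, 87692619 to 87699429), Csn1s2a (chromosome 5, 87774450 to 87788798), Csn1s2b (chromosome 5, 87808121 to 87824421) and Csn3 (chromosome 5, 87925579 to 87932550). Csn1s2a stood at 53201 and 65421 CPM in pregnancy and 220725 and 213374 CPM in lactation, a log2 change of 1.87 ± 0.26. Csn2, the beta-casein gene, went from 44804 and 53657 to 196873 and 189491 CPM, and Csn1s1 from 35904 and 42984 to 172838 and 170772 CPM. None of these 3 overlapped between stages, as in 73.9% of all genes tested, and each was already abundant in pregnancy. Csn3, which encodes the kappa-casein that caps the casein micelle, rose by 2.27 on the log2 scale from 10123 and 12165 to 54155 and 53006 CPM. Csn1s2b differed from its neighbours in starting level: it read 13.9 and 22.9 CPM in pregnancy and 6952 and 6854 CPM in lactation, 375-fold higher (edgeR adjusted p = 2.28e-09). Reads of Csn1s2a and Csn1s2b may have been divided between these paralogs, since the rule for reads with several positions is not given.

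Whey genes covered a wider range of change than the caseins other than Csn1s2b. Wap, whey acidic protein (chromosome 11, 6635483 to 6638654), was at 4456 and 9853 CPM in the pregnant and 97017 and 90838 CPM in the lactating libraries, a log2 change of 3.71 ± 0.33. The pregnant libraries differed from each other, and both lay far below the lactating ones (the log2 change was 4.41 without pregnant library 2). Lalba, alpha-lactalbumin, the partner that turns a galactosyltransferase into lactose synthase, rose by 3.64 from 409.8 and 785 to 7702 and 7231 CPM. Glycam1, a mucin-like protein of milk (chromosome 15, 103562759 to 103565081), rose by 2.76, Spp1, osteopontin, by 2.31, and the milk lipase gene Cel by 2.40. Trf, transferrin, went from 23888 and 25879 to 77266 and 74150 CPM. Wfdc18 was the whey gene that was not called, at 2914 and 4612 CPM in pregnancy and 3532 and 4011 CPM in lactation. Per kilobase of gene length, Csn1s2a led in both stages (64468 and 235923 CPM per kb), while Wap moved from 12731 to 167131 CPM per kb and so from below Csn1s1 (27856) to above it (121331). Lao1, an L-amino-acid oxidase gene of milk, rose 21.4-fold, from 540.2 and 822 to 14556 and 14662 CPM.

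STAT5, the transcription factor that prolactin activates, binds palindromes of the form TTCNNNGAA. Promoter windows of 250 bases before the annotated start were taken from RefSeq (GRCm38.p6) for the 10 of 14 milk protein genes that the table holds. The motif, searched on both strands (it reads the same on each), was found in 3 of these 10, against 8.13% of the 27025 genes with a window, 8.04% of the genes that rose and 6.51% of those that fell. The windows shown are these 3, picked because they hold the motif. It is in capitals, 93, 100 and 145 bases before the start. For Csn2 that annotated start lies just inside the gene span given above, so window and span overlap by a few bases. The windows of Csn1s2a and Wap, also among the highest genes in lactation, held no match. A match is a description of letters and not a site of binding.
Csn2 (chr5:87699426-87699675, minus strand): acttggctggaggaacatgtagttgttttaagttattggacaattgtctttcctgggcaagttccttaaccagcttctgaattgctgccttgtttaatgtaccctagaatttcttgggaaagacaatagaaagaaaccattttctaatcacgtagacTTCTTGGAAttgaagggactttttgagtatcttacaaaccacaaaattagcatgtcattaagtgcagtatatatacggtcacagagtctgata
Csn1s1 (chr5:87665958-87666207, plus strand): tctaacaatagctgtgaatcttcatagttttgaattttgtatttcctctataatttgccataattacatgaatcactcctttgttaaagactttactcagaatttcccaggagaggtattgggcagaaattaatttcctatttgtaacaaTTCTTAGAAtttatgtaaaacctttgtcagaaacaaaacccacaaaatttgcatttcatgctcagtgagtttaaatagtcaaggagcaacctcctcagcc
Glycam1 (chr15:103565082-103565331, minus strand): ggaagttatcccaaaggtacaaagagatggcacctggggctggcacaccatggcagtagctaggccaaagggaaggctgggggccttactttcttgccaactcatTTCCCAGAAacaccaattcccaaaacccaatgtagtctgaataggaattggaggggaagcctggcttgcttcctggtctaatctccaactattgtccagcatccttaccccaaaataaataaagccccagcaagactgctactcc

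Of 15 genes of de novo fatty acid synthesis 13 rose and 0 fell (median 2.11). Slc25a1, the carrier that exports citrate from mitochondria, rose by 4.13 ± 0.14, from 52.1 and 53.7 to 839 and 1013 CPM. Acly, which splits that citrate to acetyl-CoA, went from 765 and 738 to 3627 and 4605 CPM. Fasn, fatty acid synthase, rose by 2.45 and Thrsp, a lipogenic regulator, by 2.55. The 2 acetyl-CoA carboxylases moved unequally. Acaca, the usual isoform of lipogenic tissue, rose 2.73-fold from 483 and 807 CPM, while Acacb, the isoform known for the mitochondrial membrane of muscle, rose 19.9-fold from 25.5 and 26.5 to 479.6 and 556 CPM.

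Of 21 genes of desaturation and chain elongation 12 rose and 2 fell (median 0.71, and 0.00 by library size alone). Scd1, the stearoyl-CoA desaturase that makes oleate, was the largest gain of a gene outside the milk proteins, from 2105 and 2267 to 20485 and 22459 CPM. Its paralog Scd2 rose more steeply, by 4.59 ± 0.28, from 58 and 35.6 to 1016 and 1247 CPM, though reads of Scd1, Scd2 and Scd3 may be shared. Elovl6 and Elovl5, elongases, rose by 3.18 and 2.86, and the desaturase genes Fads1 and Fads2 by 2.06 and 1.87.

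Of 30 genes of fatty acid uptake and triglyceride assembly 18 rose and 5 fell (median 0.93). Lpl, lipoprotein lipase, which takes up fat from the blood, went from 518 and 766 to 2948 and 3208 CPM. Fabp3, an intracellular carrier, rose by 1.73 and Lpin1, a phosphatidate phosphatase, by 1.58. Members of 1 enzyme step moved in opposite directions: the acyltransferase gene Agpat4 rose 10.01-fold from 2.42 and 2.22 CPM while Agpat3 fell from 80.6 and 107 to 36.2 and 36.8 CPM. Among acyl-CoA synthetases Acsl1 rose by 1.49 and Acsl3 changed by -1.27.

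The droplet and globule list was divided, with 9 of 17 higher and 6 lower (median 0.26, and -0.60 by library size alone). Cidea, Btn1a1 and Xdh were among the higher members. Cidea, which fuses droplets and regulates Xdh in the gland, rose 27.8-fold from 38.6 and 61.9 to 1342 and 1452 CPM. Btn1a1, butyrophilin, went from 1285 and 1452 to 5404 and 6000 CPM and Xdh, its partner in the globule coat, from 810.2 and 1314 to 3128 and 3808 CPM. The lower members included the lipase genes Mgll (-2.02 ± 0.26) and Lipe (-1.49 ± 0.20) and the droplet protein genes Hilpda (-1.62 ± 0.23) and Plin2. Plin2, the droplet coat adipophilin, fell from 2681 and 3857 to 1410 and 1596 CPM (edgeR adjusted p = 0.00342), and its 2 lactating libraries lay below both pregnant ones.

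All 20 genes of cholesterol synthesis rose, with a median log2 change of 1.92 (1.06 by library size alone, where Hsd17b7 and Sc5d turned direction). The rise spanned the pathway. Pmvk, a mevalonate pathway kinase, went from 22.7 and 22.3 to 140.4 and 148 CPM, Fdps from 17.5 and 14.2 to 104 and 95.2 CPM and Sqle from 42.3 and 37.8 to 184 and 191 CPM. None of these overlapped between stages, as in 73.9% of all genes tested. Late steps ranged from Sc5d, at 0.49 ± 0.17, to Tm7sf2, at 2.67 ± 0.15. Sc5d lost its call without pregnant library 1 (0.43, edgeR adjusted p = 0.129), lactating library 1 (0.52, 0.0815) or lactating library 2 (0.53, 0.0776). Of 21 genes of sterol sensing, uptake and efflux 10 rose and 4 fell (median 0.42, and -0.14 by library size alone). Insig1, which retains the SREBP activator SCAP in the endoplasmic reticulum, rose by 4.11 ± 0.22 from 34.1 and 21.6 to 448 and 513 CPM. Srebf1, an SREBP gene counted here with fatty acid synthesis, rose by 1.51. Abca1, the exporter that liver X receptors induce, fell from 34 and 45.1 to 11.5 and 8.71 CPM, whereas Abcg2, which secretes compounds into milk, rose by 1.49.

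SREBP proteins bind sterol response elements, for which the letters TCACNCCAC were searched on both strands of the same windows. They were found in 1 of the 15 cholesterol genes with a window, against 1.22% of all genes with a window. The share was 1.18% of the genes that rose and 1.15% of those that fell. The same letters were found in 1 of the 10 milk protein genes with a window (Spp1). The STAT5-type letters were found in 1 of the 15 cholesterol genes (Ebp), so neither motif was confined to its list. In the cholesterol genes the sterol-type match lies 137 bases before the start of Hmgcs1. Hmgcs1 encodes the enzyme that makes HMG-CoA and went from 48.4 and 40.1 to 150.3 and 131 CPM. No match says only that these letters were not in a window.
Hmgcs1 (chr13:119690101-119690350, plus strand): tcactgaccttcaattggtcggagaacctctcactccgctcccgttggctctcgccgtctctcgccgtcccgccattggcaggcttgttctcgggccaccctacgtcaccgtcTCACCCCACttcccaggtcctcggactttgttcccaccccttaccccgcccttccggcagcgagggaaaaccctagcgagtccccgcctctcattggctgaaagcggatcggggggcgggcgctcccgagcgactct

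**Figure D3:**
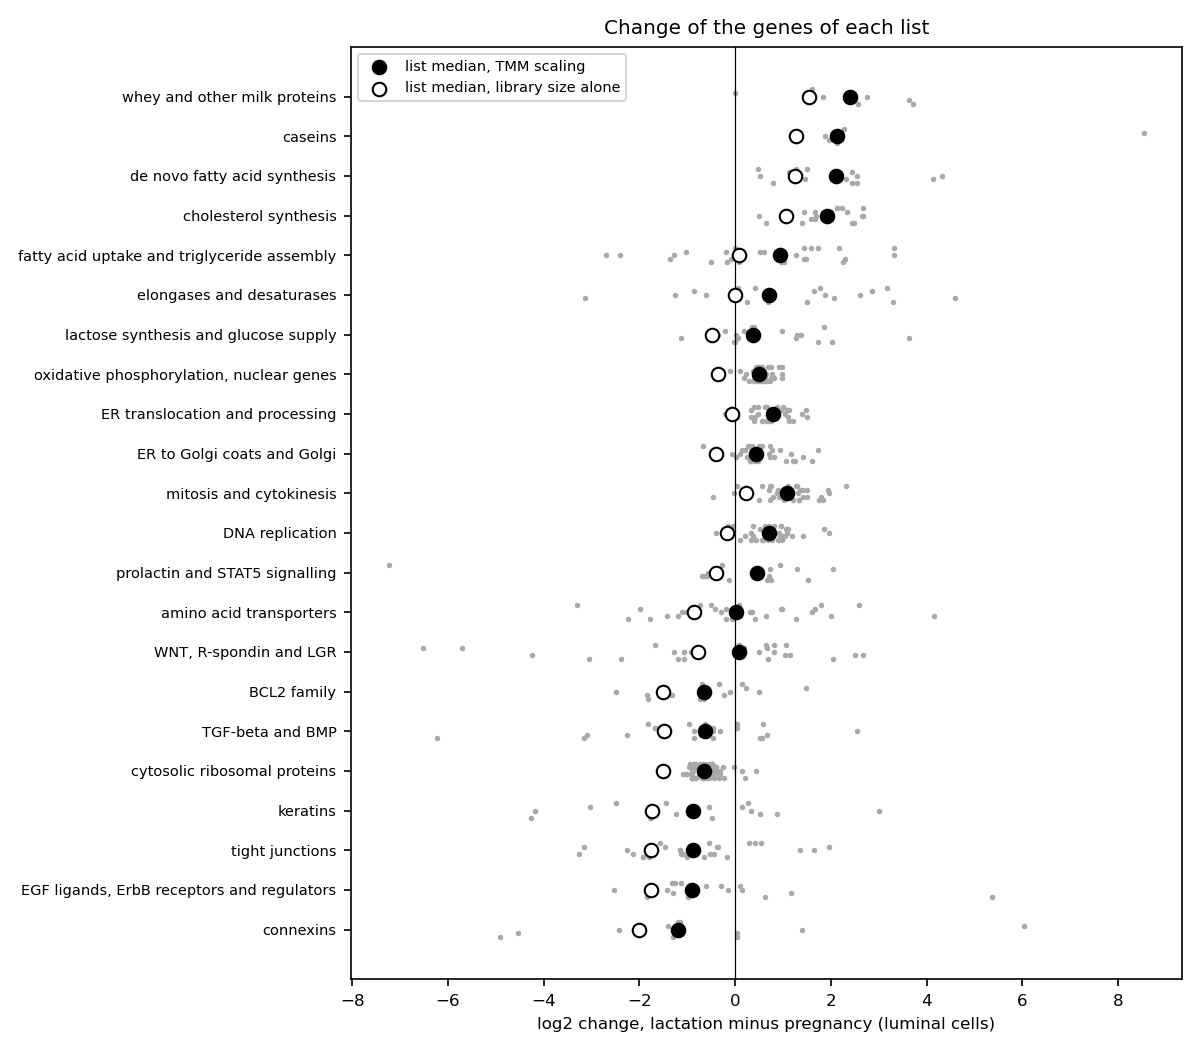
Log2 change from pregnancy to lactation of each tested gene (grey points) by gene list, with the list median under TMM scaling (filled marker) and under library size alone (open marker). Milk protein, fatty acid synthesis and cholesterol lists lie furthest right and ribosomal protein, keratin and tight junction lists to the left of 0.

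Of 18 genes of lactose synthesis and glucose supply 8 rose and 0 fell (median 0.37, and -0.48 by library size alone). Beside Lalba these included B4galt1, the galactosyltransferase itself (627 and 761 to 2095 and 2530 CPM). The glucose transporter gene Slc2a1 stood at 344 and 351 CPM in pregnancy and 342 and 353 CPM in lactation, so that the ranges overlapped, and Hk1 at 132 and 123 CPM in pregnancy and 124 and 127 CPM in lactation. Of 12 genes of the pentose phosphate pathway and NADPH supply 7 rose and 1 fell (median 0.60, and -0.26 by library size alone). Among those that rose were Me1, malic enzyme, at 2.11 ± 0.15, and G6pdx, the entry of the pentose phosphate pathway, at 1.45 ± 0.10.

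Of 30 genes of glycolysis and pyruvate entry into mitochondria 16 rose and 6 fell (median 0.52, and -0.34 by library size alone). Mpc1 and Mpc2, the subunits of the mitochondrial pyruvate carrier, rose by 1.69 and 1.41, Pcx, pyruvate carboxylase, by 1.96 and Dlat, a subunit of pyruvate dehydrogenase, by 1.73. Pdk4, the kinase that switches pyruvate dehydrogenase off, read 571 and 1192 CPM in the pregnant libraries and 56.2 and 48.3 CPM in the lactating ones. It was 16.9-fold lower in lactation (edgeR adjusted p = 7.91e-07), with no overlap although the pregnant libraries differed. Pdk1, another kinase of that enzyme, rose by 1.27. Aldoc, an aldolase, rose 6.08-fold and Mdh1, cytosolic malate dehydrogenase, 3.13-fold.

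Of 47 nuclear genes for oxidative phosphorylation 41 rose and 0 fell, by small amounts (median 0.50, which became -0.36 by library size alone). Atp5o, of the ATP synthase stalk, rose from 80.7 and 78.4 to 159 and 155 CPM, and Ndufs1, of complex I, went from 62.1 and 58.1 to 118 and 117 CPM. Of the 13 respiratory genes that mitochondria encode themselves 2 rose (median 0.20, and -0.65 by library size alone). COX1, a subunit of cytochrome oxidase, was at 18286 and 20284 CPM in pregnancy and 22003 and 23296 CPM in lactation and was not called.

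Of 19 genes of calcium and phosphate transport 9 rose and 2 fell (median 0.57, and -0.15 by library size alone). Atp2b2, the plasma membrane pump that moves calcium into milk (chromosome 6, 113743831 to 114042613), read 2.82 and 4.29 CPM in pregnancy and 511 and 661 CPM in lactation, 165-fold higher. Its paralog Atp2b1 fell from 98.7 and 129 to 59.2 and 62.1 CPM. Atp2c2, the Golgi calcium pump SPCA2, rose by 2.19 and Slc34a2, the phosphate transporter of the alveolar surface, by 4.18 ± 0.20 from 82.6 and 75.9 CPM. Stim1 and Stim2, sensors of calcium stores, rose by 1.53 and 1.78. Pthlh, parathyroid hormone-related protein, which the lactating gland secretes and which mobilises bone calcium, stood at 0.403 and 0.345 CPM in pregnancy and 27.4 and 39.9 CPM in lactation.

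Zinc transporters moved in both directions. Slc30a2, which loads zinc into secretory vesicles, rose by 3.20 ± 0.14, from 21.3 and 22.5 to 202 and 201 CPM. Of the importers, Slc39a8 (chromosome 3, 135816882 to 135888572) went from 1.21 and 2.42 to 169 and 157 CPM, while Slc39a4 went the other way, from 88.9 and 92.2 to 5.35 and 3.56 CPM. The 2 importers thus changed by 6.50 and -4.34 on the log2 scale, each without overlap, as in 73.9% of all genes tested. Iron genes showed Slc40a1, the iron exporter ferroportin, higher (2.15 and 3.01 to 8.71 and 10.1 CPM) and Fth1, the ferritin heavy chain, lower (5077 and 5775 to 3228 and 2815 CPM). In the whole list of 31 genes for zinc, iron and copper 19 rose and 6 fell (median 0.53, and -0.33 by library size alone).

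Of 25 genes of water, salt and iodide transport 9 rose and 7 fell (median -0.01), and of 24 genes that carry vitamins, choline and organic cations 13 rose and 8 fell (median 0.54, and -0.31 by library size alone). Scnn1g and Scnn1b, subunits of the epithelial sodium channel, rose by 2.92 and 1.65, and Slc5a5, the iodide pump that supplies iodide to milk, from 31.3 and 38.1 to 126 and 158 CPM. Cftr, the chloride channel of cystic fibrosis, had 53 counts over the pregnant libraries and 0 over the lactating ones, at least 10.9-fold lower with a floor of 3 counts over the group. Slc22a3, an organic cation transporter, had 248 counts against 0, at least 51-fold lower. Folr1, which carries folate to milk, rose by 2.56 and Slc52a3, a riboflavin transporter, by 2.82. Stra6, a retinol importer, fell from 1.93 and 0.69 to 0.153 and 0 CPM.

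Of 30 amino acid transporters 12 rose and 7 fell (median 0.01, and -0.85 by library size alone). Slc1a3, a glutamate transporter, rose 17.7-fold from 1.93 and 2.27 CPM and Slc7a2, a cationic amino acid carrier, 6-fold, from 13.3 and 19.3 to 92.9 and 103 CPM. The glutamate transporter Slc1a1 fell from 56.9 and 58.5 to 11.9 and 12.7 CPM and the glutamine transporter Slc1a5 from 14 and 17.9 to 3.97 and 4.01 CPM. Of 24 genes of the ATF4 and amino acid response 9 rose and 5 fell (median -0.01), and 2 of proline synthesis were among the higher (Aldh18a1 1.57 ± 0.14, Pycr1 1.43 ± 0.16) and Phgdh, the entry to serine synthesis, fell from 100.5 and 80.9 to 44.6 and 33 CPM. Proline is abundant in caseins. Atf4 itself changed by -0.35. It lost its call without pregnant library 1 (-0.32, edgeR adjusted p = 0.0578), lactating library 1 (-0.35, 0.057) or lactating library 2 (-0.29, 0.112).

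Most genes of the secretory route rose by TMM scaling. Of 31 genes that bring proteins into the endoplasmic reticulum and process them 29 rose and 0 fell (median 0.79, and -0.07 by library size alone). Sec11c, of the signal peptidase, went from 85.7 and 75.7 to 223 and 229 CPM and Ssr4, of the translocon, from 189 and 206 to 529 and 516 CPM. In the coat and Golgi list 28 of 36 rose and 1 fell (median 0.44, and -0.41 by library size alone), led by Tmed3 (1.74 ± 0.21) and Lman1, a cargo receptor (1.42 ± 0.14). In the folding and unfolded protein list 18 of 32 rose and 3 fell (median 0.42, and -0.44 by library size alone). Xbp1, the factor that expands the secretory apparatus, rose from 509 and 568 to 1135 and 1273 CPM and Derl3, of degradation at the endoplasmic reticulum, by 3.38 ± 0.26, whereas Ern1, the sensor that activates XBP1, fell from 34.7 and 35.4 to 22.5 and 21.3 CPM. Rab and SNARE genes were mixed (11 higher and 8 lower of 35, median -0.01), as were all genes tested (23.7% higher and 24.6% lower). Rab18, a droplet-bound Rab, rose from 192 and 248 to 900.1 and 1107 CPM.

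Ribosomal protein transcripts moved the other way. Of 77 tested 66 fell and 1 rose, with a median of -0.65 and -1.50 by library size alone. Rplp0, of the ribosomal stalk, went from 1108 and 1062 to 577 and 548 CPM and Rps3 from 1111 and 1121 to 613 and 584 CPM, so that replicates of a stage differed far less than the stages did. The exception was Rps27l, a p53 target, at 0.43 ± 0.11. Ribosomal proteins have many processed pseudogenes, and how reads shared with these were counted is not known. The elongation factors Eef1a1 and Eef2, 2 of the 10 largest losses in CPM, changed by -0.76 ± 0.13 and -0.76 ± 0.13. Their levels were 3425 and 3418 CPM in pregnancy and 2017 and 2028 CPM in lactation for Eef2.

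Eef2k, the kinase that inactivates eEF2, rose by 1.90 ± 0.09, from 52.4 and 54.2 to 194 and 204 CPM. Deptor, an inhibitor of mTOR, rose 7.29-fold from 8.29 and 7.35 to 53.5 and 60.4 CPM, and Pdcd4, an inhibitor of the initiation helicase, by 1.44. Eif4b and Eif3e, initiation factors, fell (-0.99 ± 0.11 and -1.04 ± 0.13), while Rheb, which activates mTOR, and Akt1 rose by 1.11 and 1.05. Over the list 12 of 41 rose and 16 fell (median -0.11). Myc, which drives ribosome production, fell from 406 and 449.5 to 177 and 205 CPM, Npm1 from 255 and 230.3 to 92.3 and 97.7 CPM and Ncl from 958 and 809.8 to 440.4 and 454 CPM, and in the ribosome biogenesis list 15 of 30 fell (median -0.39). Mxd1, which opposes MYC, was the member that rose, from 44 and 63.5 to 152 and 132 CPM.

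Most proliferation genes rose by TMM scaling. Of 40 genes of mitosis 34 rose and 0 fell (median 1.09, and 0.22 by library size alone), and of 43 genes of DNA replication 27 rose and 1 fell (median 0.70, and -0.17 by library size alone). Mki67, present in cycling cells, read 80 and 55.6 CPM in pregnancy and 358 and 318 CPM in lactation. Ccna2, cyclin A2, read 12 and 7.59 CPM in pregnancy and 37.8 and 30.5 CPM in lactation, and Plk1, a mitotic kinase, 2.78 and 1.63 CPM in pregnancy and 9.32 and 6.52 CPM in lactation. Fen1, a replication nuclease, read 69.3 and 43.7 CPM in pregnancy and 189.5 and 252 CPM in lactation. However, 84.2% of the exon length of Fen1 overlaps exons of other genes. In each of these 4 genes pregnant library 1 was the higher of its pair and stood below both lactating libraries. In virgin luminal cells Mki67 was at 62.8 and 66.6 CPM.

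Of 29 genes that govern entry into the cycle 12 rose and 9 fell (median 0.07, and -0.79 by library size alone). Ccnd1, cyclin D1, was at 225 and 119.9 CPM in pregnancy and 237 and 223 CPM in lactation, overlapping and not called, and Cdk4, its kinase, fell from 129.8 and 102 to 55.6 and 52.1 CPM. Cdkn1a, the inhibitor p21, rose by 0.80, while Trp53, which encodes p53, fell 4.03-fold from 78 and 62.5 to 17.5 and 17.4 CPM. Cdk4 has processed pseudogenes, so shared reads may affect its count.

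Genes of the BCL2 family, which hold cells alive or trigger their death, were mostly lower, with 8 of 15 tested members falling and 1 rising (median -0.65). Bcl2l1, which encodes the survival protein BCL-XL, read 244 and 276 CPM in pregnancy and 51.7 and 40.9 CPM in lactation. Mcl1, a survival gene that alveolar cells are known to need, read 994 and 1156 CPM in pregnancy and 703 and 588 CPM in lactation. Bcl2l2, which encodes the survival protein BCL-W, rose from 45.4 and 48.1 to 132 and 128 CPM. The genes that trigger apoptosis fell in 3 cases by over 1 on the log2 scale: Bik from 9.5 and 10.6 to 2.67 and 2.96 CPM, Bbc3 from 21.5 and 20.1 to 7.64 and 6.21 CPM and Bcl2l11 from 29.1 and 33.9 to 12.1 and 13.3 CPM. Bak1, Bad, Bid, Bmf and Bok were not called, and 2 of the 17 members in the table, Bcl2l10 and Hrk, had too few counts to test.

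Of the EGF ligands named here 1 rose and 3 fell. Egf, a growth factor secreted into milk, read 1.7 and 2.27 CPM in pregnancy and 81.4 and 81.1 CPM in lactation. Hbegf read 269.7 and 434 CPM and then 119 and 76.8 CPM, Areg, the ligand tied to estrogen in ducts, 14.7 and 7.2 CPM in pregnancy and 2.06 and 1.74 CPM in lactation, and Tgfa 10.7 and 11.6 CPM in pregnancy and 4.89 and 4.24 CPM in lactation. Among these named ligands Egf was the gene that rose, and its stages did not overlap. The other ligand genes of the list are not reported here. The receptor genes Egfr, Erbb2 and Erbb3 fell (-0.99 ± 0.15, -0.91 ± 0.11 and -1.42 ± 0.16), and Erbb4, at 9.27 and 7.45 CPM in pregnancy and 7.18 and 3.86 CPM in lactation, was not called. Of 19 genes in the list 3 rose and 10 fell (median -0.91).

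Outputs of ERK signalling downstream of such receptors were divided too. Dusp6, an ERK phosphatase, fell from 192 and 174 to 33.9 and 42.9 CPM, Spry2, a feedback inhibitor, from 114 and 112 to 30.3 and 30.7 CPM and Phlda1 from 408 and 384 to 37.3 and 36.5 CPM. Etv5, a transcription factor that ERK also induces, rose 10.5-fold from 3.27 and 2.81 to 37.1 and 26.8 CPM, and Spry4 by 1.60. Errfi1, an inhibitor of EGFR itself, fell by 1.25 from 1170 and 1192 CPM. In the list 5 of 21 rose and 9 fell (median -0.54).

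Immediate early genes, which cell dissociation can also induce, moved in both directions: 7 of 26 rose and 7 fell (median -0.08). That is near the shares over all genes tested, 23.7% higher and 24.6% lower. Egr1 was at 510.4 and 726 CPM in pregnancy and 1211 and 2055 CPM in lactation and Fos at 1162 and 1518 CPM in pregnancy and 2153 and 3337 CPM in lactation, so that lactating library 2 was the highest for both. Fos lost its call without pregnant library 1 (0.87, edgeR adjusted p = 0.0692) or lactating library 2 (0.72, 0.0997). The part of dissociation in these levels was not tested. Within the same list Ccn2 and Ccn1, matricellular genes known as targets of YAP and TEAD, fell. Ccn2 (chromosome 10, 24595442 to 24598683) went from 385 and 610.5 to 3.21 and 4.62 CPM, 127-fold lower, and Ccn1 from 979 and 1696 to 226 and 215 CPM. Pregnant basal cells held 3021 and 3358 CPM of Ccn2, and the basal marker sum of the luminal libraries was lower in lactation too, while the basal keratin Krt5 was not lower. The part of basal cells in the fall of Ccn2 was not tested. Thbs1, thrombospondin 1, read 1337 and 1778 CPM in pregnancy and 96.5 and 84.2 CPM in lactation.

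Prolactin signalling genes rose in part. Prlr, the prolactin receptor, went from 98.5 and 110.5 to 293 and 305 CPM, while virgin luminal cells held 1126 and 1024 CPM. Stat5a and Stat5b rose by 0.72 and 0.94, and the targets Socs3 and Cish by 1.30 and 0.75. Of 17 genes 8 rose and 6 fell (median 0.45, and -0.41 by library size alone). In the LIF and STAT3 list, which is known for its part in involution, Lif fell from 389.7 and 622 to 79.6 and 53.9 CPM and Stat3 from 897 and 883 to 548 and 460.0 CPM, with 6 of 16 genes higher and 5 lower (median 0.00). Tph1, the enzyme of serotonin synthesis in the gland, rose from 14.9 and 24.5 to 124 and 106 CPM.

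Of 15 genes of hormone-sensing cells 7 rose and 5 fell (median 0.43, and -0.43 by library size alone). Esr1, estrogen receptor alpha, stood at 8.73 and 8.28 CPM in pregnancy and 33.1 and 36 CPM in lactation, and Cited1, its coactivator, at 7.03 and 8.28 CPM in pregnancy and 99 and 78.6 CPM in lactation. Both stages lay below the virgin level of Esr1, 64.9 and 51.5 CPM. Pgr, the progesterone receptor, went down from 6.81 and 6.11 to 3.36 and 2.96 CPM, and Wnt4, which progesterone induces, from 63.5 and 44.2 to 26.8 and 20 CPM. Calca, the calcitonin gene, had 100.2 and 76.7 CPM in pregnancy and 31.2 and 5.08 CPM in lactation, with both lactating libraries lower but far apart. Its log2 change of -2.29 was -4.08 without lactating library 1 and -1.47 without lactating library 2. The call was lost in DESeq2's Wald test (-2.21, adjusted p = 0.059).

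Tnfsf11, RANK ligand, which progesterone induces in these cells, had 23.8 and 0.69 CPM in the pregnant libraries and 0.153 and 0 CPM in the lactating ones. Pregnant library 1 decided that difference. Without it the fitted log2 change was -3.08 with an edgeR adjusted p of 0.0857, so the call was lost. The receptor genes went up: Tnfrsf11a, RANK, from 18.9 and 23.6 to 60.8 and 72 CPM and Tnfrsf11b, the decoy receptor, from 0.537 and 1.03 to 6.8 and 5.68 CPM. Of 24 NF-kappaB genes 7 rose and 12 fell (median -0.28), with Nfkb2 at -1.52 ± 0.16 and Traf1 at 3.72 ± 0.29.

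R-spondin and WNT genes held some of the largest falls. Rspo1, a ligand that amplifies WNT signals (chromosome 4, 124986401 to 125009102), read 403 and 274 CPM in pregnancy and 3.82 and 3.56 CPM in lactation, 91.6-fold lower (edgeR adjusted p = 6.78e-08). Its level in virgin luminal cells was 90.6 and 64.2 CPM. Lgr6, a receptor for R-spondins, fell from 52.2 and 30.6 to 1.99 and 2.35 CPM, Axin2, a general WNT target, from 2.46 and 2.66 to 0.382 and 0.227 CPM and Tcf7, a WNT-responsive factor, from 5.91 and 6.61 to 0.153 and 0.0758 CPM. Rising in the same list were Sfrp1, a secreted WNT inhibitor (25.2 and 39.99 to 193 and 223 CPM), Wnt5a, a ligand of the non-canonical branch (1.88 and 2.27 to 13.4 and 10.2 CPM), and Rnf43, which removes WNT receptors (17.7 and 15.5 to 34.4 and 39.6 CPM). In all 7 of 28 rose and 12 fell (median 0.08, and -0.77 by library size alone).

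**Figure D4:**
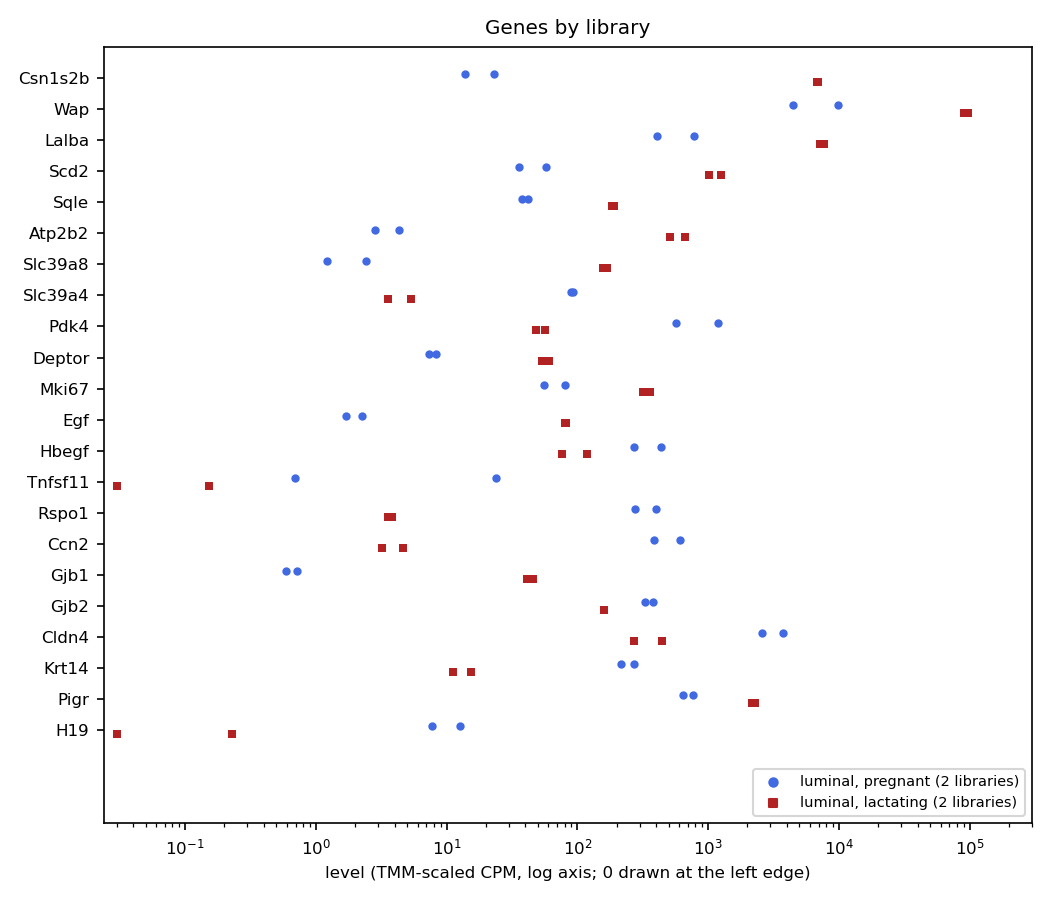
Levels (TMM-scaled CPM, log axis) of genes described in the text in each library: pregnant luminal (2 points) and lactating luminal (2 points). Values of 0 are drawn at the left edge. Replicates lie close together for most genes, and Tnfsf11 shows pregnant libraries that stand apart.

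TGF-beta genes were mostly lower, and more Notch genes fell than rose. In the TGF-beta and BMP list 15 of 26 fell and 3 rose (median -0.63). Smad7, the feedback inhibitor, went from 106 and 136 to 15.2 and 13 CPM, Tgfb2, a ligand, from 125 and 129.9 to 25.2 and 28.1 CPM and Tgif1, a corepressor, from 314 and 390.5 to 128 and 91.8 CPM. Bmp3 rose, from 5.6 and 18.3 to 77.4 and 60.8 CPM. Of 22 Notch genes 8 fell and 2 rose (median -0.06), among them Heyl, a target (4.34 and 4.24 to 0.229 and 0.303 CPM), Hes1 (222 and 307 to 90.6 and 100.5 CPM) and Notch2 (82.4 and 82.3 to 31.9 and 41.8 CPM).

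Of 22 insulin and IGF genes 7 rose and 6 fell (median 0.03, and -0.82 by library size alone). Igf1r fell from 7.84 and 15.4 to 2.14 and 1.97 CPM, while Irs1, the adaptor below it and the insulin receptor, rose from 8.15 and 9.81 to 58.1 and 83.8 CPM and Irs2 from 76.2 and 81 to 184 and 195 CPM. H19, an imprinted non-coding RNA, went from 431 counts over the pregnant to 3 over the lactating libraries, 88.6-fold lower with a counting interval from 30.1 to 431.

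Adhesion genes fell more often than they rose. Of 29 tight junction genes 18 fell and 4 rose (median -0.89). Cldn4 went from 2594 and 3770 to 442 and 269.6 CPM, the largest loss in CPM of any gene, Cldn3 from 345 and 366 to 79.3 and 69.1 CPM and Cldn1 from 173 and 198 to 50.9 and 46.1 CPM. Cldn8, a claudin that seals against sodium, rose from 65 and 108 to 270.2 and 267 CPM. With cadherins and desmosomes 10 of 21 fell and 1 rose (median -0.46), and Cdh1, E-cadherin, read 633 and 685 CPM in pregnancy and 164 and 144 CPM in lactation. Of 22 integrin and matrix receptor genes 11 fell and 3 rose (median -0.37), with Itga2, a collagen receptor, at -4.04 ± 0.34.

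Connexins, which join neighbouring cells by gap junctions, moved in both directions. Gjb1, connexin 32 (chromosome X, 101376376 to 101385629), went from 0.717 and 0.592 to 41 and 45.8 CPM, 66.4-fold higher. Gjb2, connexin 26, fell from 381 and 331 to 161 and 160.5 CPM and Gjb6 from 126 and 124 to 47.2 and 47.1 CPM. Gjb1 was the member of 11 tested that rose, and 5 fell (median -1.19).

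Keratin genes fell in 8 of 16 cases and rose in 1 (median -0.89). Krt8, Krt18 and Krt19, the luminal keratins, changed by -1.75 ± 0.19, -1.77 ± 0.16 and -1.24 ± 0.15. Krt14, known from basal and some luminal progenitor cells, went from 216 and 271 to 15.4 and 11.1 CPM, while Krt5, its usual partner in basal cells, stood at 3.94 and 3.99 CPM in pregnancy and 7.8 and 6.67 CPM in lactation. Basal cells of pregnant mice held 4202 and 5449 CPM of Krt14.

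Among luminal progenitor genes 7 of 18 fell and 4 rose (median -0.23), beside 24.6% lower and 23.7% higher over all genes tested. Kit, the receptor that marks luminal progenitors, read 149 and 291 CPM in pregnancy and 19.3 and 17.7 CPM in lactation, without overlap. Plet1 went from 2655 and 3119 to 1192 and 906 CPM and Cd44 from 12.8 and 9.07 to 1.99 and 2.2 CPM. Of 34 luminal transcription factors 12 fell and 5 rose (median -0.17), with Elf5 at 0.67 ± 0.17 (edgeR adjusted p = 0.00571), Ets2 at -1.34 ± 0.17 and Runx1 at -1.37 ± 0.14.

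Genes of milk immune defence rose in 10 of 22 cases and fell in 4 (median 0.59, and -0.26 by library size alone). Pigr, the receptor that carries IgA into milk, went from 762 and 646 to 2182 and 2277 CPM, and Ccl28, which draws plasma cells to the gland, from 2.51 and 1.18 to 21.5 and 16.6 CPM. Ltf, lactoferrin, read 285 and 903 CPM in pregnancy and 4375 and 5473 CPM in lactation, so that the pregnant libraries differed while both stayed below the lactating ones. The log2 change of 3.05 was 2.46 without pregnant library 1 and 4.12 without pregnant library 2. Saa1 and Saa2, acute-phase proteins that share sequence, rose by 2.84 and 3.17, and Lpo, lactoperoxidase, by 3.47. C3, the central complement component, fell from 2526 and 2307 to 416 and 208 CPM.

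Chemokine genes went in separate directions. The neutrophil attractants Cxcl1, Cxcl2 and Cxcl3 rose (2.44 ± 0.23, 2.23 ± 0.30 and 2.92 ± 0.28), and Cxcl1 reached 1277 and 1299 CPM. Csf1, the macrophage growth factor, fell from 352 and 523 to 37.1 and 35.4 CPM, Cxcl16 from 129 and 158 to 60.5 and 41.1 CPM and Ccl2, a monocyte attractant, from 7.03 and 14.3 to 3.59 and 2.05 CPM. Of 23 genes 8 rose and 6 fell (median 0.31, and -0.53 by library size alone, and -0.05 without pregnant library 2). Over all genes tested 23.7% rose and 24.6% fell. In antigen presentation 7 of 20 fell and 2 rose (median -0.36): Nlrc5, the activator of class I genes, changed by -1.63 ± 0.30 and H2-Q4 by 1.36 ± 0.13, though class I genes share reads. B2m, the class I light chain, stood at 1457 and 1570 CPM in pregnancy and 1541 and 754 CPM in lactation and was not called, with lactating library 2 below the other 3. Interferon response genes rose in 8 of 21 cases and fell in 2 (median 0.70, and -0.16 by library size alone), with Irf1 at 1.99 ± 0.18 and Stat2 at 1.37 ± 0.13.

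Clock and stress lists were divided, as were all genes tested (23.7% higher and 24.6% lower). Of 21 clock genes 8 rose and 6 fell (median 0.35, and -0.50 by library size alone), with Nfil3 at 2.08 ± 0.12, Per2 at -1.21 ± 0.16 and Csnk1e at -1.53 ± 0.14, and the hour of collection is not given. Of 27 redox genes 11 rose and 6 fell (median 0.17, and -0.69 by library size alone). Ggt1, which cleaves glutathione at the cell surface, rose from 18.7 and 20.3 to 152 and 164 CPM and Prdx4, the peroxiredoxin of the endoplasmic reticulum, from 101 and 102 to 372 and 377 CPM. Hmox1, heme oxygenase 1, fell from 415 and 443 to 196 and 96.3 CPM, a call that was lost without lactating library 2 (-1.10, edgeR adjusted p = 0.0651). Of 18 hypoxia genes 6 rose and 6 fell (median 0.22, and -0.63 by library size alone), and of 30 lysosome genes 11 rose and 8 fell (median 0.06, and -0.79 by library size alone), with the protease gene Ctsd at 1.07 ± 0.14.

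Beyond the lists, the steepest rise among genes of at least 10 CPM was that of Pcp4, a calmodulin regulator, from 0.179 and 0.0493 to 64.3 and 95.9 CPM. Apod, a lipocalin, went from 0.403 and 0.493 to 44.2 and 75.9 CPM, Ddah1, which degrades an inhibitor of nitric oxide synthesis, from 1.21 and 1.82 to 124 and 107 CPM and Car4, a carbonic anhydrase, from 1.3 and 3.94 to 208 and 134 CPM. Prss35 (6.82 ± 0.50), Plpp4 (5.85 ± 0.45), Fcna (5.24 ± 0.50), Wfdc17 (5.18 ± 0.42) and Nid2, a basement membrane nidogen (4.88 ± 0.27), completed the 15 highest changes with Csn1s2b, Atp2b2, Slc39a8, Pthlh, Gjb1 and Egf. At the other end Mab21l4 had 490 counts in pregnancy and 1 in lactation, 302-fold lower with a counting interval from 54 to 12000. Prss22, a serine protease, went from 129.5 and 119.6 to 3.52 and 1.82 CPM, Chadl from 41.4 and 31.9 to 1.07 and 0.758 CPM and C1qtnf1 from 118 and 108 to 4.97 and 3.18 CPM. Calml3 (-5.23 ± 0.62), Pik3ap1 (-4.97 ± 0.61), Alox12e (-4.77 ± 0.38), Dtx4 (-4.72 ± 0.21), Sspo (-4.68 ± 0.45) and Emid1 (-4.61 ± 0.70) were also among the 15 lowest, as were Tnfsf11, Ccn2, Rspo1 and H19.

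Whether the lactation change differed between luminal and basal cells was tested as the difference of the 2 changes (luminal minus basal). It passed the threshold in 5787 genes (36.2%), above 0 in 2918 (18.3%) and below 0 in 2869 (18%), a split that became 1012 and 7921 by library size alone. Cell type and sequencing lane cannot be told apart in the levels. Pcp4 and Slc39a8 rose in luminal cells while basal levels went from 7.38 and 10.8 to 10.04 and 10.3 CPM and from 13.4 and 14.2 to 14.5 and 19.8 CPM, and the differences were 9.18 ± 0.74 and 6.19 ± 0.32. For Apod it was 7.44 ± 0.49 and for Prss35 5.92 ± 1.49, a call that was lost without basal pregnant library 1 (5.47, edgeR adjusted p = 0.118). Sv2c and Susd1 also led this side (6.76 ± 1.45 and 6.70 ± 1.09), but basal lactating libraries held at most 0.046 CPM of either, so these fitted values rest on near-zero levels.

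Below 0, H19 fell in luminal cells while its basal level went up, from 1.22 and 0.824 to 11.8 and 5.88 CPM, a fitted difference of -9.51 ± 0.81 that rests on 3 luminal counts in lactation. Creb5 went from 20.2 and 26.3 to 3.13 and 2.5 CPM in luminal and from 10.04 and 13.9 to 70.8 and 71.5 CPM in basal cells (difference -5.62 ± 0.27, edgeR adjusted p = 3.24e-07). Arhgef28 differed by -4.78 ± 0.29. Basal changes were not tested on their own. Basal Ccn2 went from 3021 and 3358 to 638 and 949.6 CPM, and the luminal change lay below the basal one by a difference of -4.98 ± 0.38. Rspo1 and Smoc1 had differences of -4.83 ± 0.47 and -4.66 ± 0.52. Mki67, added after its values were seen, rose in luminal cells while its basal level went from 46.8 and 38.9 to 22.5 and 14.8 CPM, a difference of 3.52 ± 0.27 (edgeR adjusted p = 2.91e-06).

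**Figure D5:**
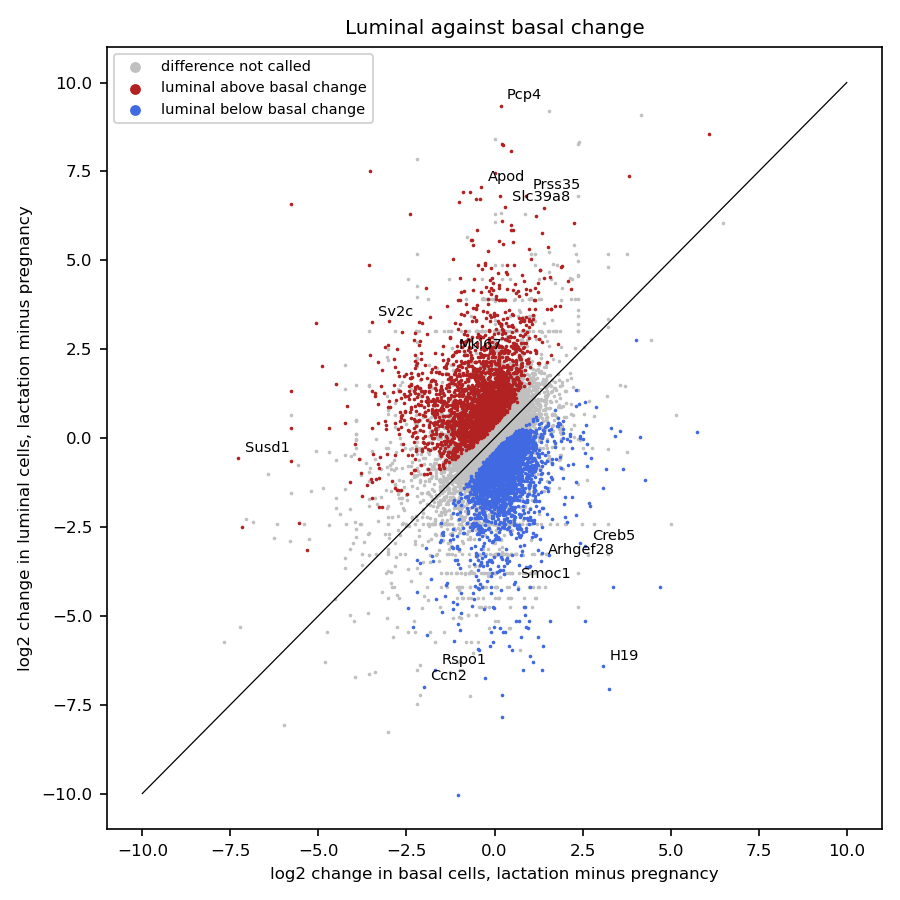
Log2 change from pregnancy to lactation in luminal cells (vertical) against that in basal cells (horizontal) for the genes tested. Genes whose 2 changes differ by the test are coloured, the diagonal marks equal change, and the labelled genes are described in the text. H19, Creb5 and Arhgef28 lie below the diagonal at the right.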

How the data were processed

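Sorted luminal and basal cells were sequenced in 12 libraries, 2 per cell type and stage. The authors deposited raw read counts per Entrez gene. CASAVA 1.8.2, Subread 1.4.4 and featureCounts are named in the submitters' processing notes, and the strand setting is not given in the sources used here. Of 27179 genes 25275 matched a RefSeq symbol, and genes without one held 0.54 to 1.37% of counts. Libraries held 20015386 to 24723827 counts.

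Counts were fitted with edgeR 4.0.16 (R 4.3.3): TMM factors, genes kept at a minimum count of 10 by group, 6 group means over all 12 libraries, quasi-likelihood F-tests and Benjamini-Hochberg adjustment at 0.05 over all 15969 genes. Standard errors were derived from the change and its F statistic. The script was tested on simulated data. These were not built to hold the shift in library composition seen here, so that test does not bear on the scaling. Over genes, luminal and basal libraries of the same stage and number deviated with correlations of 0.249, 0.355 and 0.161. Groups of different stages reached 0.164 (luminal pregnant with basal virgin) and -0.277 (basal virgin with basal lactating). Only the pregnant value, 0.355, exceeded both of these in size, so the values do not settle whether libraries were paired. Pregnant and lactating luminal libraries stood at -0.021. The tests reported above used no pairs, and the block by mouse assumes them without a label that says so. Alternatives were DESeq2 1.42.0, other scalings, no filter, a replicate block by number or mouse, only luminal libraries, and leaving out each library. Genes were named for the 15 highest and 15 lowest changes at 10 CPM or more, the 10 largest gains and losses in CPM, up to 5 members per direction and the 5 of highest level in each of 60 functional and 8 marker lists (all members of 5 lists and of the marker lists), and the 6 highest and lowest luminal-minus-basal differences. Results on some of these genes are not reported here. The members and lists were chosen with earlier results of these data known.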

Additional observations from a re-analysis of the deposited data

Results flagged for a closer look

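The change from pregnancy to lactation differed between luminal and basal cells by the test of the difference itself (edgeR, log2, luminal minus basal) for each gene printed with that difference. Above 0 these were Pcp4 at 9.18, Apod at 7.44, Sv2c at 6.76, Susd1 at 6.70, Slc39a8 at 6.19, Prss35 at 5.92 and Mki67 at 3.52. Below 0 these were H19 at -9.51, Creb5 at -5.62, Ccn2 at -4.98, Rspo1 at -4.83, Arhgef28 at -4.78 and Smoc1 at -4.66. The value of H19 rests on 3 counts over the lactating luminal libraries. Of these 13 genes, 12 were chosen for the size of this difference, so that their values describe the extremes, and Mki67 was added after its values were seen. Susd1 was not called within luminal cells (-0.57), and its difference comes from basal libraries that held 0 counts in lactation. Ccn2 and Rspo1 went down in both fitted changes, by -6.99 against -2.01 and by -6.52 against -1.69.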

How the results depend on the processing

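The number of genes called in luminal cells (7716) was 7442 to 7776 under other size factors, milk genes left out of the totals, no low-count filter, DESeq2, and the replicate block, and 7252 with only the 4 luminal libraries. Leaving out a luminal or basal library gave 5901 to 7683 calls, 3107 to 3756 of them higher and 2794 to 3927 lower. For the difference of changes these were 4573 to 5426, 2372 to 2772 and 2092 to 2654. Scaling by library size alone gave 1013 higher and 9584 lower genes, and 8933 differences of which 1012 lay above and 7921 below 0. The milk share rose by 31.4 percentage points, by 18.9 for caseins alone and by 29.9 to 33.0 without a library.

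With the replicate block by number 7776 genes and 5862 differences were called. With the replicate block by mouse, the assumed pairing of luminal and basal libraries, 6483 differences were called (3285 above 0 and 3198 below). The 13 named differences kept their calls.

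By library size alone these list medians of at least 0.1 turned below 0: DNA replication -0.17, ER folding -0.44, coats and Golgi -0.41, ER translocation -0.07, calcium -0.15, clock -0.50, chemokines -0.53, glycolysis -0.34, hormone-sensing -0.43, milk hormones -0.64, hypoxia -0.63, interferon -0.16, lactose -0.48, lipid droplets -0.60, endothelial markers -0.51, milk defence -0.26, nuclear respiratory genes -0.36, NADPH -0.26, prolactin -0.41, redox -0.69, mitochondrial genome -0.65, sterol sensing -0.14, citric acid cycle -0.58, vitamins -0.31 and metals -0.33. Medians under 0.1 that did so were amino acid transporters -0.85, tRNA synthetases -0.81, G1 genes -0.79, insulin and IGF -0.82, lysosome -0.79 and WNT -0.77. So did Bad -0.64, Bid -0.70, COX1 -0.62, Cdkn1a -0.05, Cish -0.11, Elf5 -0.18, Hsd17b7 -0.20, Rps27l -0.42, Sc5d -0.36, Stat5a -0.14 and Wfdc18 -0.84. The chemokine median was -0.05 without pregnant library 2 and at most 0.42 without any other. The serotonin median (-0.22) was 0.15 with only luminal libraries and -0.55 to 0.30 without a library, the latter without lactating library 1. The cause was not tested.

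Of 250 called genes named, 5 lost the call without 1 luminal library (Atf4, Fos, Hmox1, Sc5d and Tnfsf11), Calca did in DESeq2, and 0 turned direction in a setting other than library size alone. For 26 called genes the fold moved by over 1.5 times without 1 luminal library, Calca, Wap and Ltf among them. H19, Mab21l4, Slc22a3, Stra6 and Tnfsf11 had at most 3 counts over the lactating libraries, so their fitted values without a library are left out of the list that follows. That of Tnfsf11 without pregnant library 1 is given above with that gene. The other log2 changes were these: without pregnant library 1 Areg -1.91, Bmp3 1.93, Car4 5.45, Ccl28 4.01, Fcna 4.47, Pcp4 10.53, Pik3ap1 -4.23, Prss35 6.21 and Wfdc17 4.42; without pregnant library 2 Bmp3 3.63, Car4 7.05, Ccl2 -1.31, Cxcl2 2.86, Cxcl3 3.65, Fcna 6.84, Pdk4 -3.44, Prss35 7.82, Slc52a3 3.54 and Wfdc17 6.82; without lactating library 1 Calml3 -5.98, Pik3ap1 -5.93 and Sv2c 3.87; without lactating library 2 Emid1 -5.20, Pik3ap1 -4.35, Smoc1 -4.90 and Sv2c 2.35. With 2 libraries a stage, small changes and genes near 1 CPM are least certain.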
